A study of Mus musculus with 8 samples.

Results

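A set of 8 protease inhibitor genes of myeloid cells was followed in Cd11b-positive mouse bone marrow cells: the stefin A genes Stfa1, Stfa2, Stfa2l1 and Stfa3, the stefin B gene Cstb, the cystatin C gene Cst3, the secretory leukocyte inhibitor Slpi and the serpin Serpinb1a. Every probe set annotated to one of them was used, also where stefin symbols shared it. That gave 9 probe sets for 7 of the 8 genes, out of 45037 tested probe sets. No probe set was annotated to Stfa2, which was not analysed here. The genes were chosen by their family, with earlier results of these data known, so the choice was not blind to the data. Stfa3 was picked on its difference between the groups as the gene with the largest rise, so its difference is a description without a test.

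The mice were 8 weeks old, their background mixed FVB and C57BL6, and both groups were labelled E2f1 null with a floxed E2f3. The 4 control samples had the genotype E2F1-/-2+/+3f/f, with intact E2f2 and no Cre. The 4 experimental samples had the genotype Mxcre;E2F1-/-2-/-3f/f, lacking E2f2 and carrying Cre under the Mx promoter, which responds to interferon. All mice were given pIpC, a synthetic RNA duplex that triggers interferon release, as 5 injections (250 µg each), and cells were taken 24 h after the last. The Cre transgene was in the experimental group only, so its presence and the E2f2 and E2f3 changes cannot be told apart. The loss of E2f1 and the pIpC were shared by both groups. The labels do not say whether each sample came from a separate animal, so part of the spread behind a p-value may be technical. By Xist and Eif2s3y, 2 of the 4 controls and 1 of the 4 experimental samples were male, so each group held more than 1 animal and the groups differed in sex. With inferred sex as a block no tested member probe set changed its side of the threshold. Values are log2 probe set values from Affymetrix arrays, differences are experimental minus control with the moderated standard error (SE) of a limma fit, and the call threshold is an adjusted p of 0.05.

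Stefins are small cytosolic inhibitors that block lysosomal cysteine proteases, the cathepsins, once these leave the lysosome. The mouse carries several stefin A genes side by side, where humans have the single gene CSTA, and they are known for their expression in granulocytes. Cystatin C is the secreted relative, while Slpi and Serpinb1a act on the serine proteases of neutrophil granules, among them elastase and cathepsin G.

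The genes of the genotypes gave the following values. The E2f2 probe set 1455790_at lay at 7.76 to 8.19 in the controls and 7.06 to 7.47 in the experimental arrays, a difference of -0.66 ± 0.13 (SE, n = 4 per group, limma adjusted p = 0.0351). The other E2f2 probe set, 1436434_at, differed by -0.55 ± 0.16 (adjusted p = 0.107). The E2f3 probe sets differed by 0.11 ± 0.11 (adjusted p = 0.657) and 0.29 ± 0.11 (adjusted p = 0.201). Although every mouse was labelled E2f1 null, E2f1 gave values of 6.71 to 7.03 in the controls and 6.81 to 8.08 in the experimental arrays at 1417878_at (difference 0.58 ± 0.23, adjusted p = 0.236). At 1431875_a_at it lay at 6.25 to 6.95 and 6.64 to 7.55 (0.48 ± 0.24, adjusted p = 0.345). The third E2f1 probe set, 1447840_x_at, was dim, at 3.79 to 3.93 and 3.81 to 4.27 (0.24 ± 0.11, adjusted p = 0.318). Whether these probes lie in the deleted parts is not stated, so they check the labels only in part. Array medians ran from 5.01 to 5.04. The myeloid genes S100a8 (14.40 and 14.32 in control and experimental), S100a9 (14.49 and 14.43) and Itgam, which encodes Cd11b (11.58 and 11.54), were bright in both groups.

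The stefin A genes are shown first by their promoters, because the probe sets with the largest differences among the members belong to this family and because the sequences show how alike its genes are. RefSeq (GRCm38.p6) gave a promoter, 250 bases before to 50 after the start, for 6 of the 8 members. The promoters of the members that the results turn on are printed 5′ to 3′ on the strand of the gene, and capitals mark the 4 runs of at least 11 bases that Stfa1, Stfa2, Stfa2l1 and Stfa3 all hold.
Stfa3, chr16:36455343-36455642, minus strand: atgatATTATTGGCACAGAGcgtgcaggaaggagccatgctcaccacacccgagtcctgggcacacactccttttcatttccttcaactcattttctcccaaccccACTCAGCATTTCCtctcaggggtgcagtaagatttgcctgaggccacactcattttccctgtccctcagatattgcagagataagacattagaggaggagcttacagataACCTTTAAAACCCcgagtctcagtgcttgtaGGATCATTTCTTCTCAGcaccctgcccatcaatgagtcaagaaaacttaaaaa
Stfa1, chr16:36276898-36277197, plus strand: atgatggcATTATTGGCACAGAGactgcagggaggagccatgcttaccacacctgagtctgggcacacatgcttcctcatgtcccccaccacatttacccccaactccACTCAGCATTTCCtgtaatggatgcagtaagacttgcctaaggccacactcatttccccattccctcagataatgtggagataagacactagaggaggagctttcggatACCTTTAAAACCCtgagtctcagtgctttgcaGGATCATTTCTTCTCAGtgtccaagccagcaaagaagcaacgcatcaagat
Stfa2l1, chr16:36156561-36156860, plus strand: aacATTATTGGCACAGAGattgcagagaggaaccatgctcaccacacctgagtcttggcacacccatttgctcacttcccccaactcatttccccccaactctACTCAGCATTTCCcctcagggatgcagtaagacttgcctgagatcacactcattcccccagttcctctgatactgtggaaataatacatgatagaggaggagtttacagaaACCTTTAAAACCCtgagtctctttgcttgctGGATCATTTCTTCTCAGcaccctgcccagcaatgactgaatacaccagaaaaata
Aligned end to end, the 6 pairs of stefin A promoters were identical at 78.8% to 90.5% of columns, against 38.3% to 47.2% in the 9 pairs that include Cst3 or Slpi. Stfa3 was identical to Stfa1 at 80.6% and to Stfa2l1 at 81%. The closest pair was Stfa2 and Stfa2l1 at 90.5%.

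Each shared run occurred once in each of the 4 promoters and was rare elsewhere. ATTATTGGCACAGAG, which begins 245 bases before the start in Stfa3, was found in 5 of 32851 promoters (0.0152%). ACTCAGCATTTCC, 144 bases before the start, was found in 10 (0.0304%), and ACCTTTAAAACCC, 34 bases before it, in 9 (0.0274%). GGATCATTTCTTCTCAG, which begins 3 bases before the start of Stfa3, was found in 6 (0.0183%). The promoters that held the first run were those of Stfa1, Stfa2, Stfa2l1, Stfa3 and Cstdc5, the gene that shares a probe set with Stfa1. Outside the 4 members, the other runs were held only by some of Csta1, Csta3, Cstdc3, Cstdc4, Cstdc5, Gm7260 and Gm40403. The runs were picked as stretches that 4 closely alike promoters share, so their rarity is a description and no test of a function.

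Short motifs were searched on both strands. The E2F forms TTTCCCGC, TTTGGCGC and TTTCGCGC, held by 1.07%, 0.514% and 0.323% of all promoters, were in none of the 6 member promoters, and neither was the interferon response form GAAANNGAA (8.56% of all). The C/EBP form TTNNGCAA, held by 10.8% of all, lay in Stfa1 109 bases before the start on the minus strand and in Slpi 241 bases before it on the plus strand. The PU.1 form GAGGAAG, held by 13.6% of all, lay in Stfa1 179 bases before the start on the minus strand. A match is a description of these letters, and the absence of one says nothing about the factor.

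Stfa3 was lower in the controls than in the experimental cells, although its control values were above the array medians. Its probe set 1419709_at, on chromosome 16, read 8.39, 8.79, 8.16 and 8.89 in control replicates 1 to 4 and 12.00, 11.32, 11.46 and 12.37 in experimental replicates 1 to 4. The groups did not overlap, and the lowest experimental array lay 2.43 above the highest control. The means were 8.56 ± 0.34 and 11.79 ± 0.49 (SD, n = 4), a difference of 3.23 ± 0.25 on the log2 scale, or 9.36-fold. It was 3.07 in replicates 1 and 2 and 3.39 in replicates 3 and 4, and 3.03 to 3.38 when any single array was left out. Among 18193 genes this was rank 1, which is the rule by which Stfa3 was picked, and the next gene was Ncmap at 2.83. The unnamed probe set 1433741_at was larger still at 3.48, which put Stfa3 at rank 2 of all probe sets. The transcript accession behind the Stfa3 probe set is that of Stfa3 in RefSeq, as it is for Cstb and Slpi with their own genes. For Stfa2l1, Cst3 and Serpinb1a the accession matched no RefSeq transcript, and the Stfa1 probe set came with none, so those rest on the platform annotation.

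The probe set shared by Stfa1 and its neighbour Cstdc5, 1435761_at, rose. It read 11.37, 11.38, 11.16 and 12.30 in control replicates 1 to 4 and 13.49, 12.93, 12.91 and 13.56 in experimental replicates 1 to 4. All experimental arrays lay above all controls, by at least 0.61, although control replicate 4 stood nearer to them than the other controls did. The difference was 1.67 ± 0.25, or 3.18-fold (limma adjusted p = 0.0123, exact permutation p = 0.0286, two-sided, the smallest that 4 against 4 arrays can give). With the replicate number as a block the adjusted p was 0.00288, and it stayed under the threshold when any single array was left out (0.00794 to 0.0469). Within replicates 3 and 4 alone the difference was 1.50 (adjusted p = 0.121). The signal cannot be divided between Stfa1 and Cstdc5, and its highest array lay 0.80 below the brightest value of the array.

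Stfa2l1 had higher values in the experimental cells but missed the threshold. Its probe set 1442339_at read 10.37, 10.50, 9.37 and 10.31 in control replicates 1 to 4 and 11.82, 10.67, 11.26 and 11.77 in experimental replicates 1 to 4. The groups were apart by 0.17, the distance between experimental replicate 2 and control replicate 2. The difference was 1.24 ± 0.30, or 2.37-fold (limma adjusted p = 0.0649, exact permutation p = 0.0286). It passed in 5 of 18 alternative fits, among them the replicate number as a block (adjusted p = 0.0343). Of the 8 fits without 1 array, 1 passed, that without experimental replicate 2 (adjusted p = 0.0241). The others ran up to an adjusted p of 0.152. Replicates 1 and 2 alone differed by 0.81 (adjusted p = 0.327) and replicates 3 and 4 alone by 1.68. Hybridisation of one stefin A transcript to the probes of another was not tested.

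The stefin A probe sets shared part of their order of the arrays. Control replicate 3 was the lowest of the 8 arrays in each of Stfa3, the Stfa1 probe set and Stfa2l1. Experimental replicates 1 and 4 were the highest arrays in each of them. Other arrays differed in order. The highest control was replicate 4 for Stfa3 and the Stfa1 probe set, but replicate 2 for Stfa2l1. The lowest experimental array was replicate 2 for Stfa3 and Stfa2l1, but replicate 3 for the Stfa1 probe set. That experimental arrays stood above controls follows from the groups not overlapping. This is a description of arrays that share each RNA.

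**Figure D1:**
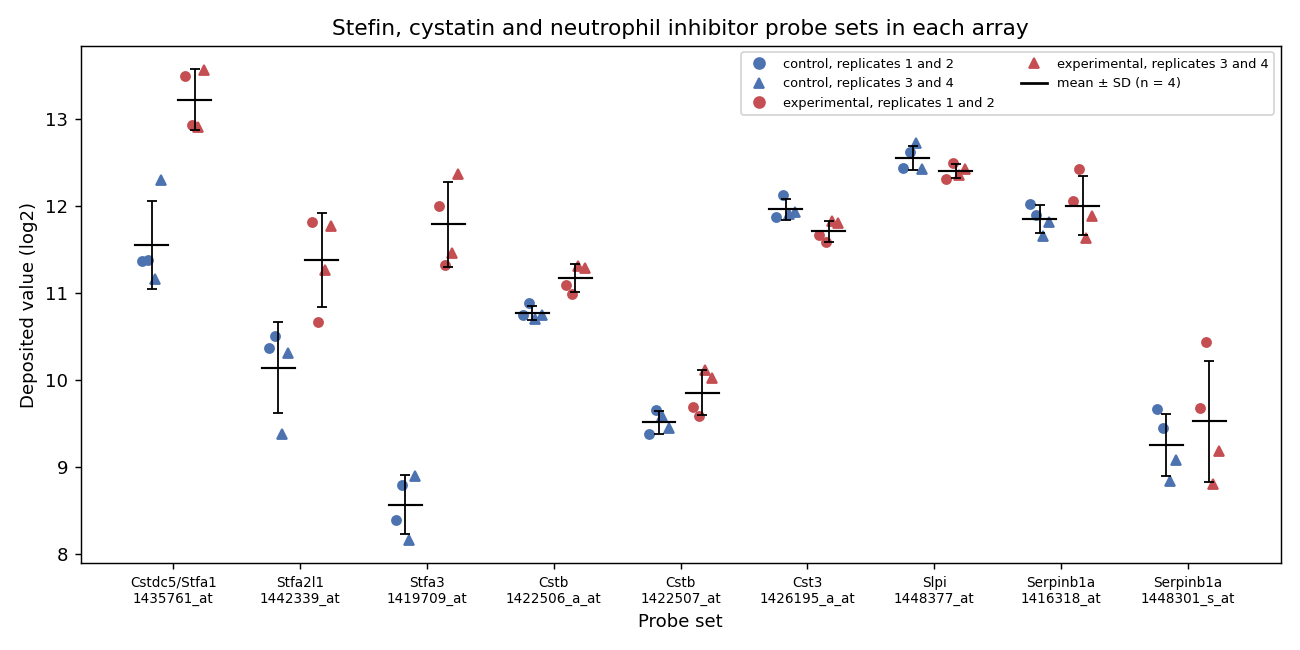
Deposited log2 value (vertical axis) of the 9 member probe sets (horizontal axis) in each array, controls in blue and experimental arrays in red, circles for replicates 1 and 2, triangles for replicates 3 and 4, bars for the mean ± SD (n = 4). Stfa3 lay at 8.16 to 8.89 in the controls and 11.32 to 12.37 in the experimental arrays, while the groups overlapped for Slpi and both Serpinb1a probe sets.

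Cstb, the cytosolic stefin B found in most cell types, differed less, and no probe set of it passed. Its probe set 1422506_a_at read 10.74, 10.88, 10.70 and 10.74 in control replicates 1 to 4 and 11.09, 10.99, 11.31 and 11.29 in experimental replicates 1 to 4. The groups were apart by 0.10, and the difference was 0.40 ± 0.10, or 1.32-fold (limma adjusted p = 0.0749, exact permutation p = 0.0286). Without experimental replicate 2 the adjusted p was 0.0421, the lowest of the alternatives, which ran up to 0.455. The other Cstb probe set, 1422507_at, read 9.37, 9.65, 9.58 and 9.45 in the controls and 9.69, 9.58, 10.11 and 10.02 in the experimental arrays. There the groups overlapped, with experimental replicate 2 inside the control range, and the difference was 0.34 ± 0.14 (adjusted p = 0.238, exact permutation p = 0.0857). Both probe sets differed more within replicates 3 and 4 (0.58 and 0.55) than in replicates 1 and 2 (0.23 and 0.12), a contrast that did not pass (limma adjusted p = 0.661 and 0.637).

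Cst3, the secreted cystatin C, was the member with values on the lower side in every experimental array. Its probe set 1426195_a_at, on chromosome 2, read 11.87, 12.13, 11.91 and 11.93 in control replicates 1 to 4 and 11.66, 11.58, 11.83 and 11.80 in experimental replicates 1 to 4. The groups were apart by 0.04. The difference of -0.25 ± 0.10, 0.843 times the control level, did not pass (limma adjusted p = 0.244, exact permutation p = 0.0286), and it was -0.39 in replicates 1 and 2 and -0.10 in replicates 3 and 4. The stefin A family and Cst3 thus had differences of opposite sign, and of those tested only the Stfa1 probe set passed the threshold.

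The inhibitors of neutrophil serine proteases had high values in both groups and did not differ past the threshold. Slpi, a secreted inhibitor of elastase and cathepsin G, read 12.44, 12.62, 12.72 and 12.42 in the controls and 12.31, 12.49, 12.36 and 12.42 in the experimental arrays. The groups overlapped, and the difference was -0.15 ± 0.10 (limma adjusted p = 0.48, exact permutation p = 0.143). Serpinb1a, a cytosolic serpin, read 12.02, 11.90, 11.65 and 11.82 in the controls and 12.06, 12.43, 11.63 and 11.88 in the experimental arrays at 1416318_at. Its difference was 0.15 ± 0.16 (adjusted p = 0.699, exact permutation p = 0.486). Experimental replicate 2 was the highest array for this gene. At 1448301_s_at it read 9.66, 9.44, 8.84 and 9.08 in the controls and 9.67, 10.43, 8.80 and 9.18 in the experimental arrays, a difference of 0.27 ± 0.32 (adjusted p = 0.73, exact permutation p = 0.543). Without experimental replicate 2 that difference was -0.04.

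For Serpinb1a, replicates 1 and 2 lay above replicates 3 and 4 in both groups, narrowly so at 1416318_at. Replicates 1 and 2 of both groups lay at 11.90 to 12.43 and replicates 3 and 4 at 11.63 to 11.88 at 1416318_at. At 1448301_s_at the same arrays lay at 9.44 to 10.43 and at 8.80 to 9.18. Replicates 1 and 2 carry sample codes of a digit then a letter, and replicates 3 and 4 codes of a letter then a digit. What the code style stands for is not given in the labels, both styles hold both groups, and this split was described after its values were seen. Across all probe sets, arrays of the same style also deviated together (correlations 0.14 to 0.26, against -0.27 to -0.13 between styles). The share of all probe sets that split in this way was not counted, so the split is not shown to be particular to Serpinb1a.

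Of the 8 member probe sets other than Stfa3, 1 rose and 0 fell past the threshold. Of all probe sets 2.58% passed, 1.03% higher and 1.55% lower. With the replicate number as a block, 2 member probe sets passed and 2277 of all probe sets, against 1162 without it. The groups did not overlap in 4 of the 8 member probe sets, 3 with the experimental arrays above and 1 with them below. Of all probe sets the groups did not overlap in 10.8%, with 4.64% above and 6.15% below. Whether the difference between groups differed between the code styles was tested as an interaction in limma, and 0 of the 9 member probe sets passed (0 at an unadjusted p under 0.05, the smallest being 0.0593), beside 0.0111% of all probe sets. With 2 arrays per group and style and standard errors of 0.17 to 0.56, this does not show that the differences were alike.

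**Figure D2:**
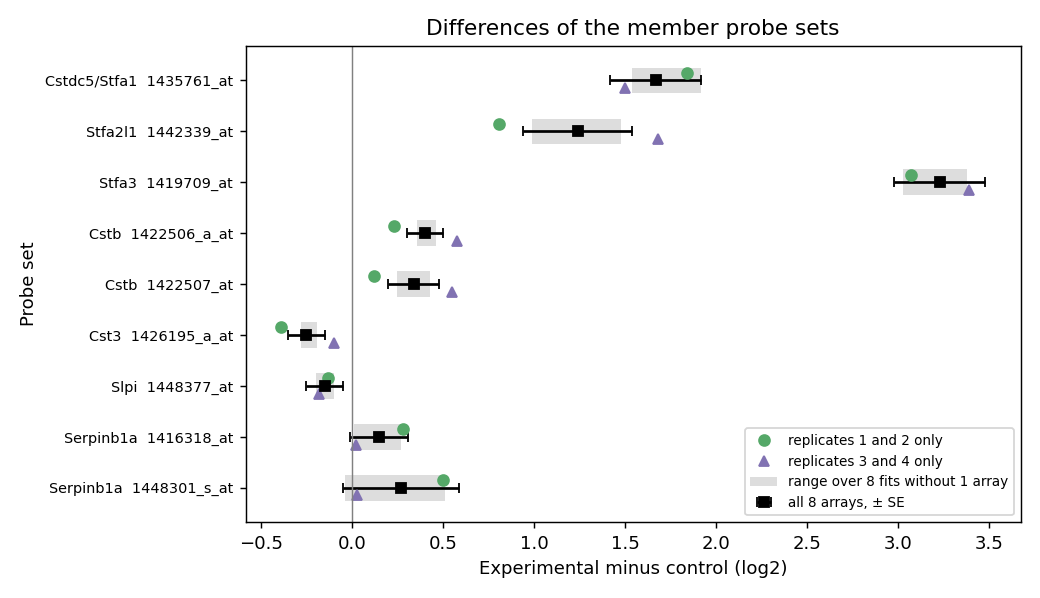
Difference between experimental and control arrays on the log2 scale (horizontal axis) for each member probe set (vertical axis), with black squares and bars for all 8 arrays ± SE, grey bands for the range when 1 array is left out, green circles for replicates 1 and 2 and purple triangles for replicates 3 and 4. The 3 stefin A probe sets lie from 0.81 to 3.39 in all of these, and the Serpinb1a probe set 1448301_s_at spans 0.

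The stefin A genes lie in a cluster of 12 protein-coding genes in the RefSeq order of chromosome 16, of which 5 probe sets measured some part. The members account for 3 of them. Csta1, a stefin A relative, was dim, at 2.27 ± 0.14 in the controls and 2.70 ± 0.17 in the experimental arrays (difference 0.42 ± 0.11, limma adjusted p = 0.0921). The probe set shared by Cstdc4 and Csta2 lay at 5.05 ± 0.32 and 5.78 ± 0.32 (difference 0.73 ± 0.19, adjusted p = 0.0869). Of the 4 cluster probe sets other than the selected Stfa3, the differences ran from 0.42 to 1.67 and only the Stfa1 probe set passed. Among all genes 52.9% had a difference above 0.

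The genes on both sides of the cluster, compared after the values were seen, were read in the same way. Of the 20 nearest measured genes, 10 on each side, 0 rose and 0 fell past the threshold, and their median difference was 0.07. Among all genes 1.53% rose and 1.95% fell, with a median difference of 0.01. The nearest gene on the Stfa3 side, the calcium-sensing receptor Casr, differed by -0.07, and the costimulatory gene Cd86 beyond it by 0.07. On the other side the nearest gene, Ccdc58, differed by 0.47 (limma adjusted p = 0.425), Fam162a by 0.65 (adjusted p = 0.0758) and the ubiquitin ligase gene Dtx3l by 0.62 (adjusted p = 0.0603), each more than Csta1 in the cluster. In Fam162a and Dtx3l the groups did not overlap. Of the 20 differences the highest was 0.65 and the lowest was -1.31, in the peptide transporter Slc15a2, whose values were widely spread.

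**Figure D3:**
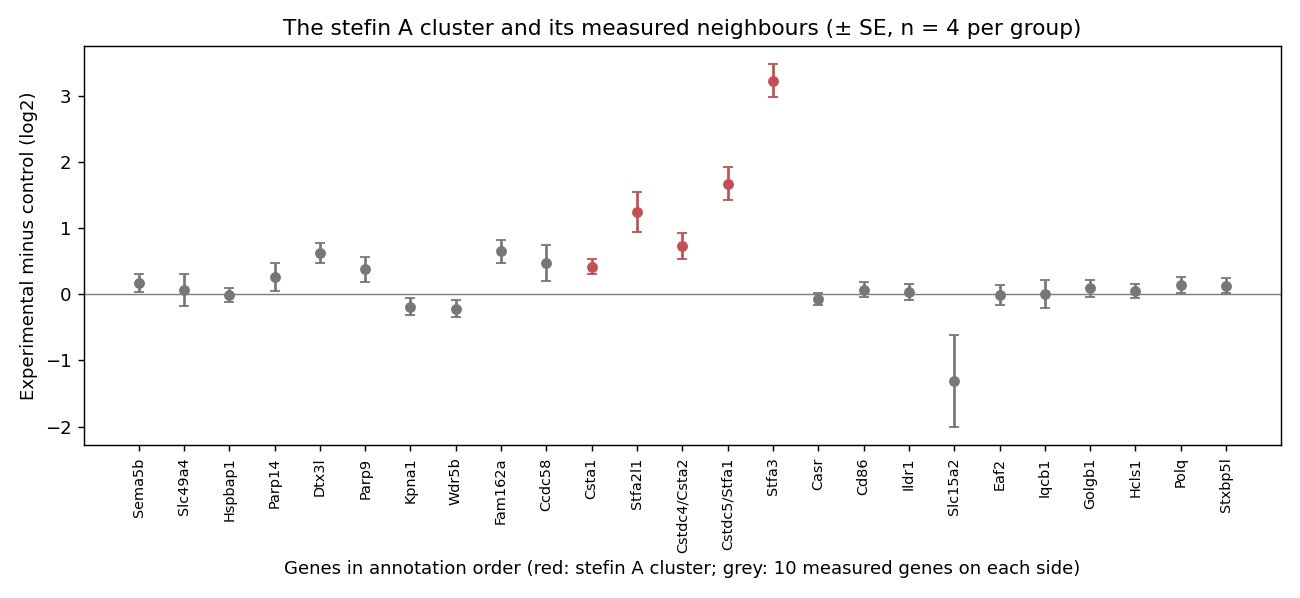
Difference between experimental and control arrays on the log2 scale ± SE (vertical axis, n = 4 per group) for the 5 probe sets of the stefin A cluster in red and the 10 nearest measured genes on each side in grey, in annotation order (horizontal axis, not to scale). The cluster probe sets lie from 0.42 to 1.67, with the selected Stfa3 at 3.23, and the neighbours from -1.31 to 0.65 with a median of 0.07, so the ranges overlap.

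Likeness to Stfa3 was searched in the brightest probe set with 1 symbol of each gene outside the members, without Riken and predicted loci. Probe sets with no symbol, such as 1433741_at, were not candidates. Among the candidates, the genes whose pattern was most like that of Stfa3 were taken by the root mean square distance over the 8 arrays, after centring each gene on its control mean. They were Ncmap, a myelin-associated membrane protein (distance 0.39, difference 2.83 ± 0.16), Ecm1, an extracellular matrix protein (0.85, 2.21 ± 0.27), Cdkn1a, the cyclin-dependent kinase inhibitor p21 (0.86, 2.25 ± 0.18), Aplnr, the apelin receptor (0.91, 2.06 ± 0.20), and the tyrosine phosphatase Ptpn3 (0.99, 2.10 ± 0.26). Among the members the Stfa1 probe set lay nearest at 1.13, then Stfa2l1 at 1.42. Their rank among all genes was not taken, so other genes may lie nearer to Stfa3. The other members lay at 2.02 to 2.48. The measure is led by the size of the difference on which Stfa3 was picked, so it is given without a test.

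Lists of related genes were read beside the members: other stefins and cystatins, lysosomal cysteine cathepsins with legumain, the neutrophil serine proteases and granule metalloproteases, other serpins and other inhibitors. Of 84 measured genes in these 5 lists, 0 passed the limma threshold in either direction, and 13 had an unadjusted p under 0.05, where 18.9% of all genes did. With the replicate number as a block 6 passed, all of them higher, where 3.16% of all genes passed higher. Many genes of these lists were dim: 12 of the 14 other stefins and cystatins, 16 of the 22 other serpins and 20 of the 31 other inhibitors lay below the array median, so their counts and medians rest mostly on dim probe sets.

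Of the other stefin and cystatin genes, 14 of 30 were measured, with 0 higher, 0 lower and a median difference of 0.04. The member of this list with the highest mean value was Cst7, cystatin F, an inhibitor made by immune cells that acts inside the endolysosomal compartment. It lay at 7.64 to 8.93 in the controls and 8.58 to 9.66 in the experimental arrays, a difference of 1.10 ± 0.30 (limma adjusted p = 0.0957). It passed with the replicate block (adjusted p = 0.0216) and without experimental replicate 2 (1.34, adjusted p = 0.032). The other gene taken by its mean value, Hrg, differed by -0.01 ± 0.09.

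Of the lysosomal cysteine proteases, cathepsins and the legumain gene Lgmn, which some cystatins bind, all 11 were measured, with 0 higher, 0 lower and a median of 0.22. Ctsb, the bright lysosomal cathepsin B, differed by 0.12 ± 0.11 (limma adjusted p = 0.618). Ctss, cathepsin S of antigen-presenting cells, differed by -0.35 ± 0.19 (adjusted p = 0.381).

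Of the neutrophil serine proteases and granule metalloproteases, the targets of Slpi and Serpinb1a among them, 6 of 8 were measured, with 0 higher, 0 lower and a median of 0.04. The collagenase Mmp8 differed by -0.20 ± 0.10 (limma adjusted p = 0.338) and the gelatinase Mmp9 by -0.18 ± 0.13 (adjusted p = 0.545). Ctsg, cathepsin G of the primary granules, named after its values were seen, lay at 11.19 ± 0.59 and 12.27 ± 0.52, a difference of 1.08 ± 0.32 (adjusted p = 0.119). It passed with the replicate block (adjusted p = 0.0321) and without experimental replicate 2 (adjusted p = 0.0347). Elane, neutrophil elastase, also named after its values were seen, differed by 0.26 ± 0.29 (adjusted p = 0.714).

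Of the other serpins, 22 of 31 were measured, with 0 higher, 0 lower and a median of 0.07. Serpinb6a, a cytosolic serpin, differed by 0.03 ± 0.23 and Serpinf2, the antiplasmin gene, by -0.05 ± 0.09. Serpinb9, an inhibitor of granzyme B named after its values were seen, differed by 0.69 ± 0.22 (limma adjusted p = 0.147, and 0.0499 with the replicate block). Of the other inhibitors all 31 were measured, with 0 higher, 0 lower and a median of 0.05. Wfdc21, a relative of Slpi with the same type of WAP domain, had the highest mean value and differed by -0.08 ± 0.11, and Pi16 differed by 0.13 ± 0.16. The WAP domain genes Wfdc17 (1.08 ± 0.29, adjusted p = 0.0871) and Wfdc18 (0.68 ± 0.17, adjusted p = 0.0813), passed with the replicate block (adjusted p = 0.0103 and 0.0228), as did Tfpi, the tissue factor pathway inhibitor (0.74, adjusted p = 0.251 without and 0.00792 with the block). These genes were named after their values were seen.

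Markers of maturity and of other cells that the sort could hold were read beside the members. In bulk RNA, fewer cells of a type and less RNA per cell cannot be told apart. Among all genes 1.53% rose and 1.95% fell past the threshold, and 3.16% rose with the replicate block. Of the primary granule and promyelocyte genes 1 of 9 rose (Ms4a3, 0.83) and 1 fell (Igsf6, -0.65), with a median of 0.27. With the replicate block 3 rose, and none rose or fell with inferred sex as a block or without any one of control replicates 1, 2 and 4 and experimental replicates 1 and 4. Of 18 secondary and tertiary granule genes 0 changed, with a median of -0.12 (Camp -0.13, Lyz2 -0.05). Of 16 mature neutrophil genes 5 fell and 0 rose, among them Clec4d (-1.71 ± 0.15, limma adjusted p = 0.00176), the G-CSF receptor Csf3r (-0.65 ± 0.09, adjusted p = 0.00943), Il1b (-1.53 ± 0.24, adjusted p = 0.0137) and Ccl6 (-0.83 ± 0.13, adjusted p = 0.0146), with a median of -0.15. With the replicate block 1 gene of this list, Wfdc17, rose. The part of cell stages in the stefin differences was not tested.

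Of the B cell markers 8 of 13 fell and 0 rose (median -1.32), where 1.95% of all genes fell and 1.53% rose. Blk, Cd79a, Spib and Ly6d had the smallest p (-1.32, -1.57, -2.48 and -2.25). The mean level of the list was 7.00 to 7.86 in the controls and 5.61 to 6.39 in the experimental arrays. Of the megakaryocyte and platelet markers 4 of 8 fell, Pf4, Ppbp, Vwf and Tubb1 (mean level of the list 6.12 to 6.69 and 5.55 to 5.59). Of the dendritic cell markers 4 of 12 fell, Cd209a, Siglech, Ccr9 and Cd74 (7.46 to 7.74 and 6.81 to 7.02). With the replicate block the falls in these lists were 9, 5 and 6. Of the eosinophil, basophil and mast cell markers 2 of 10 rose, Epx (0.91) and Siglecf (1.28), and 0 fell. The median of this list was -0.10, with 4 differences above 0 and 6 below. Ms4a2 was lower in every experimental array but missed the threshold (-0.77 ± 0.18, limma adjusted p = 0.0558). Without 1 array the falls among B cell, megakaryocyte and dendritic cell markers numbered 6 to 8, 2 to 4 (2 without control replicate 2) and 1 to 5 (1 without control replicate 2, 2 without experimental replicate 1), and the rises among the eosinophil, basophil and mast cell markers 1 to 2 (1 without any single control or experimental replicate 1). Of 11 T and NK cell markers 1 rose, Cd5 at 1.19 (2 with the replicate block), and of 16 monocyte and macrophage and 9 erythroid markers 0 changed (1 erythroid gene rose with the block), with medians of 0.06, -0.13 and 0.27. The brightest monocyte genes, Lgals3 and F13a1, differed by -0.02 and 0.19, and the erythroid genes Car2 and Tfrc by 0.11 and 0.58. Of the 16 monocyte and macrophage differences 11 were below 0 and 5 above. In Cx3cr1 (-1.23 ± 0.42, limma adjusted p = 0.169) and Cd68 (-0.37 ± 0.13, adjusted p = 0.189) all experimental arrays lay below the controls. The 3′ to 5′ log2 difference of the actin control probes, a sign of RNA quality, was 0.27 to 0.32 in the controls and 0.34 to 0.54 in the experimental arrays. For the Gapdh control probes the groups overlapped, at -0.14 to -0.09 and -0.16 to 0.03. The part of other cells and of RNA quality in the member differences was not tested.

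**Figure D4:**
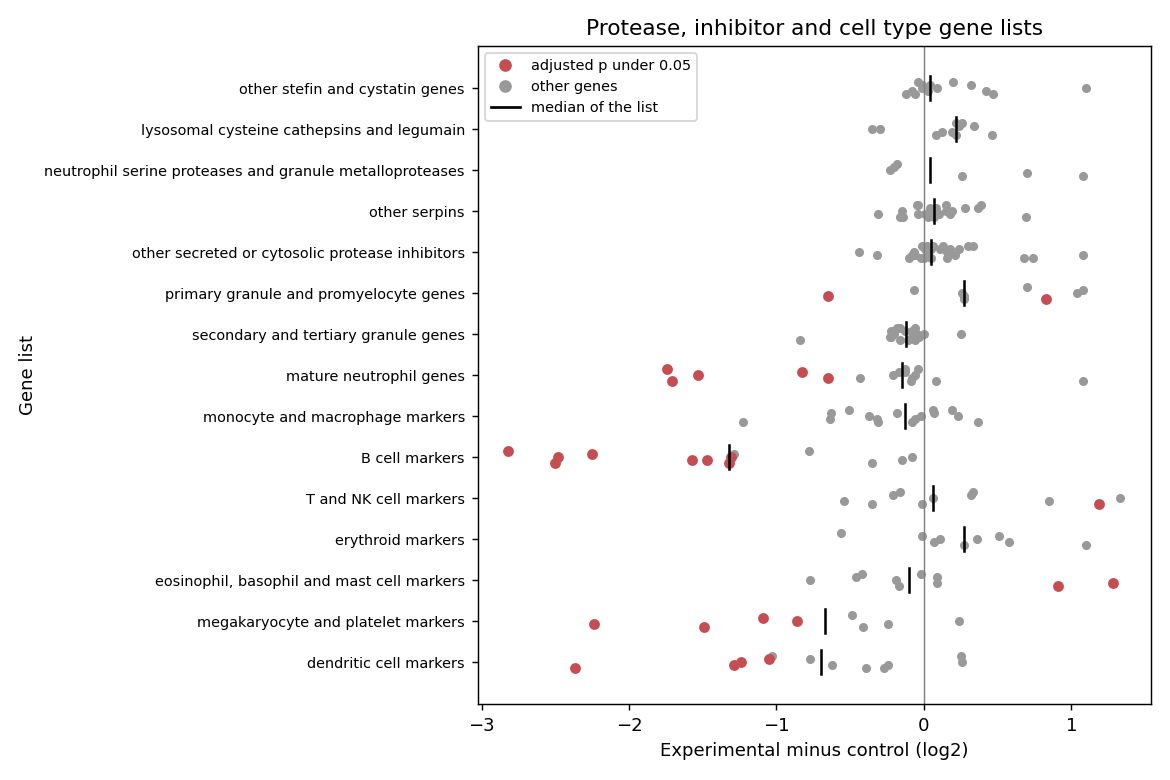
Difference between experimental and control arrays on the log2 scale (horizontal axis) of each measured gene in the lists read beside the members (vertical axis), red where the limma adjusted p is under 0.05, with a black bar for the median of each list. The 5 lists of proteases and inhibitors hold 0 red points, and the B cell markers have a median of -1.32.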

How the data were processed

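Labelled cRNA of 8 samples, 4 per group by the sample titles, was hybridised to Affymetrix mouse arrays. The authors deposited log2 values per probe set, made with RMA (no version) per the submitters' processing notes. RMA applies quantile normalization, which makes array distributions alike; whether it was run on the 8 arrays jointly is not stated. After 64 control probe sets were left out, 45037 of 45101 were tested. In the platform annotation 34945 had 1 gene symbol, 932 several and 9160 none, and 34741 of those with 1 symbol matched RefSeq by gene identifier. A gene outside the members was represented by its brightest probe set.

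Differences were fitted with limma 3.58.1 in R 4.3.3 (the group as its single term), p-values were adjusted by Benjamini-Hochberg over every probe set tested, and single values also with a two-sided exact permutation test (SciPy 1.17.1). The fit was tested on simulated data, with differences set in probe sets brighter than the median. It recovered 23.6% of 1.5-fold, 68.8% of 2-fold, 94% of 4-fold and 98.4% of 8-fold differences. The interaction with code style recovered 0%, 1.2%, 50.4% and 72.4% of the same sizes. Small differences can therefore be missed. The number of arrays limits the precision. Levels of different probe sets are not comparable.

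The members and lists were chosen with earlier results of these data known. The text names all member probe sets, and from each list up to 4 genes past the threshold with the smallest p, or the 2 brightest where none passed; others were named after their values were seen. Same-numbered arrays of both groups deviated together from their group means (correlations across probe sets 0.20 to 0.26). Arrays of the same code style but another number correlated at 0.14 to 0.26, and of the other style at -0.27 to -0.13. The correlations thus follow the code style and do not single out the replicate number. The replicate block assumes a pairing by number that the labels do not state. By inferred sex, replicates 1, 2 and 3 each joined a male and a female sample. Alternatives were the replicate number, code style or inferred sex as a block, median centring, quantile normalization, a mean of at least 6, trended robust variance, array weights, other gene summaries, leaving out each array, and each code style alone. Promoters came from RefSeq and were aligned with Biopython 1.88. Protein sequences were not used here.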

Additional observations from a re-analysis of the deposited data

How the results depend on the processing

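The sign of every member difference held under all 18 alternatives, except that the Serpinb1a probe set 1448301_s_at ran from -0.04 (without experimental replicate 2) to 0.51 when 1 array was left out. Stfa3 kept a difference of 3.03 to 3.39, and the Stfa1 probe set passed in 17 of 18. The number of member probe sets past the threshold other than Stfa3 was 1, and it was 2 with the replicate block, 3 with the code style block, 2 with a mean of at least 6, 3 with array weights and 0 within replicates 3 and 4. Leaving out 1 array gave 1 to 3, the 3 without experimental replicate 2. Of all probe sets 1162 passed, with 2277 under the replicate block, 2582 under the code style block, 663 with inferred sex as a block, 130 within replicates 1 and 2, 418 within replicates 3 and 4, and 395 to 1744 without 1 array. Of the 84 genes in the 5 protease and inhibitor lists 0 were higher, with 6 under the replicate block, 9 under the code style block, 1 after quantile normalization, 2 with array weights, 2 with averaged probe sets per gene, and 0 to 2 without 1 array. The replicate block changed no other call on the members. The difference between code styles in the group difference changed sign without 1 array for the Stfa1 probe set (-0.90 to 0.24), Stfa3 (-0.13 to 0.78) and Slpi (-0.19 to 0.10), none of which passed in any fit. The restricted fits hold fewer arrays; the cause of the other changes was not tested. Signal over background is not stated, so dim genes such as Csta1 are limited in precision to an unknown degree.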
